A study of Saccharomyces cerevisiae with 28 samples.

Results

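HPF1 (YOL155C, chromosome XV) is a yeast gene for a cell wall mannoprotein, and its transcript level was followed here on all 28 arrays of a study of strains and crosses of Saccharomyces cerevisiae. The gene was chosen by its measured values, because it stood much higher in diploids than in haploids of both strain backgrounds. That contrast is therefore described without a test, and tests are kept for other comparisons. HPF1 is 1 of 5656 genes with a probe set that names a single gene. Of 9274 probe sets analysed, 2 name HPF1 in the platform annotation. One of them names HPF1 alone and is called the HPF1 probe set. The other names HPF1 and CSS1 (YIL169C, chromosome IX), a close relative of HPF1, and is called the shared probe set. CSS1 has no probe set of its own, so its transcript cannot be told apart from that of HPF1 in the shared readout.

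The yeast cell wall has an inner layer of glucan with some chitin and an outer layer of mannoproteins, which carry long sugar chains on serine and threonine residues. HPF1 encodes such a serine- and threonine-rich mannoprotein, known as haze-protective factor because it lowers the size of protein aggregates that cloud white wine. Haploid yeast cells are of mating type a or alpha. In diploid cells that carry both mating types, the a1 and alpha2 proteins together repress a set of haploid-specific genes, and neither the a-specific nor the alpha-specific pheromone and receptor genes are expressed.

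All RNA came from cells in log phase. BY haploids (strain isogenic to S288C) and RM haploids (a wild vineyard strain) gave 3 arrays each, as did diploids made within BY and within RM. BYxRM hybrid diploids gave 6 arrays and equal mixtures of mRNA from BY and RM another 6, while 2 arrays carried progeny of that cross (segregants, of unstated ploidy) and 2 carried diploids from matings of segregants (segregant hybrids). The labels give no mating type, marker genotype or medium, nor from which ploidy the mixed mRNA came, and leave unsaid whether a group's arrays came from separate cultures. A p-value here thus speaks of the spread among arrays, possibly a technical one.

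The deposited values are log2 levels per probe set with array medians of 7.34 to 7.56. Mixture replicate 5 stood apart from its group, with a mean correlation of 0.922 with the other mixtures across probe sets. The next lowest value on any array was 0.963. Marker genes of ploidy followed the labelled groups in their mean level, and those of mating type set BY haploids apart from RM haploids. Not every gene did so. Of 12 haploid-specific genes, 11 were lower in BY diploids at a limma adjusted p under 0.05 (4.02% of all probe sets). In RM diploids 8 were (4.53%). The others did not pass there: FUS3 (-1.22), NEJ1 (-0.43), FUS1 (-0.40) and HO (-0.18). The mean level of 12 haploid-specific genes lay between 7.92 and 8.52 on the haploid, mixture and segregant arrays and between 6.34 and 6.75 on all arrays labelled diploid. The 7 a-specific genes had mean levels of 10.10 to 10.17 in RM haploids and 6.55 to 6.76 in BY haploids. The 4 alpha-specific genes had 11.80 to 12.02 in BY haploids and 7.26 to 7.78 in RM haploids, and both lists were low in every diploid group. Both segregants had the alpha pattern, with alpha-specific means of 12.26 and 12.31 and a-specific means of 6.57 and 6.68. Mixtures had high values of both lists. Ploidy and mating type therefore change together in these groups and cannot be told apart.

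HPF1 stood at 2 well separated levels. In BY haploids its probe set gave 9.29, 9.31 and 9.29 on the log2 scale, and in RM haploids 9.56, 9.53 and 9.19. In BY diploids it gave 12.94, 13.05 and 13.07, and in RM diploids 13.39, 13.30 and 13.26. The 3 arrays of each diploid group lay above all haploid arrays. In RNA of whole cultures, fewer cells with the transcript and less of it in each cell cannot be told apart. BY diploids were higher than BY haploids by 3.72 ± 0.13 (SE, n = 3 arrays per group), a 13.2-fold difference, and RM diploids were higher than RM haploids by 3.89 ± 0.13, a 14.8-fold difference. Among all probe sets this was the third largest rise in BY and the largest in RM. The RM value exceeded the BY value by 0.17, which is given as a description because both differences chose the gene.

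**Figure D1:**
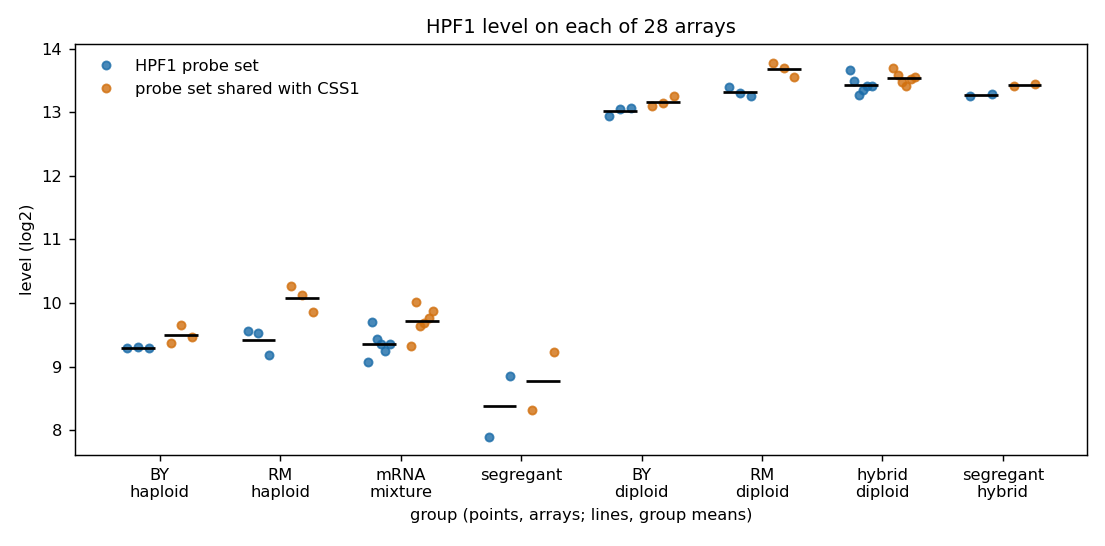
Log2 level of the HPF1 probe set and of the shared probe set on each array (points) in the 8 groups, with group means as lines. The HPF1 probe set lay between 7.90 and 9.70 on the 14 arrays of haploids, mixtures and segregants and between 12.94 and 13.67 on the 14 diploid arrays.

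With the shared probe set the groups separated in the same way. It read 9.37, 9.66 and 9.46 in BY haploids and 13.10, 13.14 and 13.26 in BY diploids. In RM it read 10.27, 10.12 and 9.86 in haploids and 13.78, 13.70 and 13.55 in diploids. No haploid array reached a diploid one. The differences were 3.67 ± 0.14 in BY and 3.59 ± 0.14 in RM, so that with this probe set the RM value was below the BY value by 0.08 (a difference of -0.08). The order of the backgrounds thus depended on the probe set.

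Hybrids and mixtures were not part of the contrasts within BY and RM that chose the gene. Earlier results of these data were known by then, so the tests on these arrays, and on segregants below, are not independent of that choice. Mixtures also had the haploid-specific genes at haploid levels (means of 8.33 to 8.51). Hybrids against mixtures thus resembles the contrast that chose the gene, and these p-values are no separate support for the diploid rise. On the 6 hybrid arrays HPF1 had a lowest level of 13.27, a median of 13.41 and a highest level of 13.67. On the 6 mixture arrays these were 9.08, 9.36 and 9.70. Every hybrid array was above every mixture array. Hybrids were higher by 4.07 ± 0.09 (95% interval 3.88 to 4.27, limma adjusted p = 2.2e-19), a 16.8-fold difference and the largest rise of any probe set in this comparison. The exact two-sided permutation test of 6 against 6 arrays gave p = 0.00216, the smallest value it can give. In this comparison 28.2% of probe sets were called at an adjusted p under 0.05.

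In hybrids the shared probe set rose by 3.82 ± 0.10 (adjusted p = 1.5e-18, exact permutation p = 0.00216), and ranked second. Its hybrid arrays lay between 13.41 and 13.70 and its mixture arrays between 9.32 and 10.01, again without overlap. Without mixture replicate 5 the difference was 4.05 for the HPF1 probe set and 3.83 for the shared one, both passing the test.

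Segregants and segregant hybrids, which the labels do not say are parents and offspring, showed the same separation. HPF1 was at 7.90 and 8.86 in the 2 segregants and at 13.26 and 13.29 in the 2 segregant hybrids. Segregant hybrids were higher by 4.89 ± 0.21 (95% interval 4.47 to 5.32, limma adjusted p = 4.8e-15 in a fit on 28 arrays), the largest rise of any probe set, in a comparison with 6.86% of probe sets called. With 2 arrays against 2 the exact permutation test cannot go below 0.333, the value it gave. Each of these arrays may be another genotype, which the pooled spread of the fit does not cover. The shared probe set gave 8.32 and 9.23 in segregants, 13.41 and 13.45 in segregant hybrids and a difference of 4.66 ± 0.21 (adjusted p = 2.0e-14).

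Among the lower groups the order of mean HPF1 levels was segregants (8.38), BY haploids (9.30), mixtures (9.36) and RM haploids (9.43). Both segregants lay below all other arrays, segregant 1 by more than 1 on the log2 scale. BY haploids, mixtures and RM haploids overlapped and did not differ beyond their spread with the HPF1 probe set. Among the diploids the order was BY diploids (13.02), segregant hybrids (13.27), RM diploids (13.32) and hybrids (13.44). BY diploids lay below all other diploid arrays, and the other 3 groups overlapped. With the shared probe set the lower groups came in the same order, at 8.78, 9.5, 9.72 and 10.08, but here all BY haploid arrays lay below all RM haploid arrays. Its diploid groups came in the order BY diploids (13.17), segregant hybrids (13.43), hybrids (13.54) and RM diploids (13.68), so that hybrids and RM diploids changed places between the readouts. Neither readout separated hybrids from RM diploids beyond their spread.

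Strain differences of HPF1 were small beside the diploid rise. In haploids RM exceeded BY by 0.13 ± 0.13 with the HPF1 probe set (95% interval -0.15 to 0.41, adjusted p = 0.583), and 18% of probe sets were called. With the shared probe set RM haploids were higher by 0.59 ± 0.14 (95% interval 0.29 to 0.88, adjusted p = 0.00452), and all 3 RM arrays exceeded all 3 BY arrays. The strain difference in haploids thus passed with the shared probe set and not with that of HPF1 alone. Whether BY and RM differ in sequence under these probes was not tested.

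In diploids, where 17.2% of probe sets were called, RM exceeded BY by 0.30 ± 0.13 with the HPF1 probe set (95% interval 0.02 to 0.57, adjusted p = 0.145). The arrays did not overlap, but the limma test was not passed. It was passed in a fit on these 6 arrays alone (adjusted p = 0.0393) and with array weights (adjusted p = 0.0254). The shared probe set was higher in RM diploids by 0.51 ± 0.14 (95% interval 0.21 to 0.81, adjusted p = 0.0141). That call ended without BY diploid replicate 1 (adjusted p = 0.0572), BY diploid replicate 2 (adjusted p = 0.0501) or RM diploid replicate 1 (adjusted p = 0.0654).

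**Figure D2:**
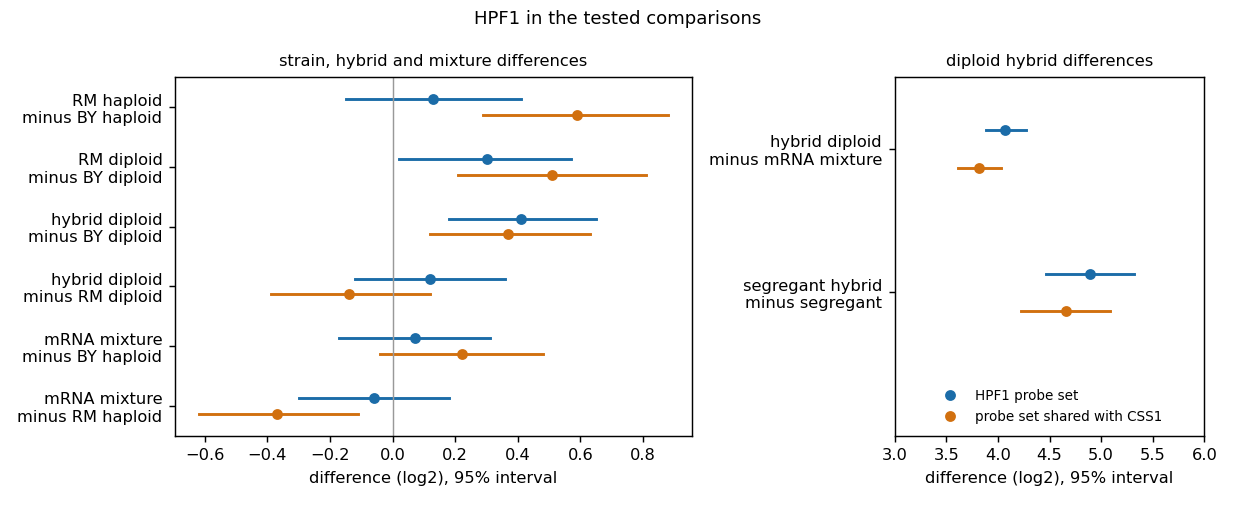
Differences in log2 level (points) with 95% intervals (lines) from the limma fit for the HPF1 probe set and the shared probe set in the 8 tested comparisons, on separate horizontal scales. Differences between hybrids and mixtures or between segregant hybrids and segregants were 3.82 to 4.89, whereas the others lay between -0.37 and 0.59.

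Hybrids were compared with each diploid parent. Against BY diploids HPF1 was higher in hybrids by 0.41 ± 0.12 (95% interval 0.18 to 0.65, adjusted p = 0.0113), with all 6 hybrid arrays above all 3 BY diploid arrays and 23.1% of probe sets called. The call ended without BY diploid replicate 1 (adjusted p = 0.0663). Against RM diploids the difference was 0.12 ± 0.12 (95% interval -0.12 to 0.36, adjusted p = 0.521), the arrays overlapped, and 12.5% of probe sets were called.

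The shared probe set was higher in hybrids than in BY diploids by 0.37 ± 0.12 (adjusted p = 0.0323). This call ended with replicate number as a block (adjusted p = 0.0643), in a fit on all 28 arrays (adjusted p = 0.0766) and without any of 5 arrays: hybrid replicate 1 or 2 or BY diploid replicate 1, 2 or 3 (highest adjusted p = 0.127, without BY diploid replicate 1). Against RM diploids it differed by -0.14 ± 0.12 (95% interval -0.39 to 0.12, adjusted p = 0.481).

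Mixtures lay close to both haploid groups. The HPF1 probe set differed from BY haploids by 0.07 ± 0.12 (95% interval -0.17 to 0.31, adjusted p = 0.797) and from RM haploids by -0.06 ± 0.12 (95% interval -0.30 to 0.18, adjusted p = 0.747). In these comparisons 4.25% and 23.2% of probe sets were called. The shared probe set was lower in mixtures than in RM haploids by -0.37 ± 0.12 (adjusted p = 0.0352) and differed from BY haploids by 0.22 ± 0.12 (adjusted p = 0.321). The call against RM haploids ended with the replicate block (adjusted p = 0.0646), in fits on all 28 arrays (adjusted p = 0.0789) or on these groups alone (adjusted p = 0.155), and without any of 5 arrays: RM haploid replicate 1 or 2 or mixture replicate 1, 3 or 4 (highest adjusted p = 0.194, without RM haploid replicate 1).

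The separation of all diploid arrays from all others was then described across probe sets. Only 10 of 9274 probe sets (0.108%) were higher on each of the 14 diploid arrays than on any of the other 14, and 120 (1.29%) were lower. The HPF1 probe set had a gap of 3.24 on the log2 scale between its lowest diploid array and its highest other array, and the shared probe set 2.83. The third largest gap was 0.30, in a probe set without a single gene name. The remaining 7 probe sets had gaps of 0.17 or less and named PRY3, a secreted cell wall protein, TIM44 and TOM20 of mitochondrial protein import, EEB1, an enzyme of ethyl ester synthesis, IME4, an RNA methyltransferase needed for meiosis, the protein kinase KDX1 and GUF1, a mitochondrial translation factor. These genes were listed after their values were seen.

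The genes whose pattern was most like that of HPF1 were sought among 662 genes (HPF1 included) whose arrays differed by at least 2 on the log2 scale, by Pearson's r with HPF1 over 28 arrays. These r values, and the differences of the genes picked by them, are a description without a test. They mostly reflect the 2 separate levels of HPF1, and the arrays share groups. The 6 highest were IME4 (r = 0.90), the alcohol dehydrogenase gene ADH4 (0.85), the homeodomain protein gene TOS8 (0.85), PRY3 (0.83), the splicing factor gene YSF3 (0.81) and MAM33 (0.81), which encodes a protein of the mitochondrial matrix. Their differences in the 3 comparisons were 2.16 or less, below those of HPF1. IME4 and YSF3 reached the range of 2 only through mixture replicate 5, where they read 5.07 and 5.04. On all other arrays IME4 was at 5.78 or above and YSF3 at 5.65 or above. In haploids, mixtures and segregants the group means were 5.79 to 6.14 for IME4 and 5.89 to 6.40 for YSF3. These lie not far above the 10th percentile of all values (5.73). IME4 lay between 5.07 and 6.62 on the arrays of haploids, mixtures and segregants and between 6.70 and 7.19 on the diploid arrays. PRY3 was at 9.83 or below on the former and higher on every diploid array, up to 10.96, with differences of 1.33 ± 0.13 in BY, 1.99 ± 0.13 in RM and 0.72 ± 0.09 in hybrids against mixtures. The differences of IME4 in the same order were 0.93 ± 0.20, 0.85 ± 0.20 and 1.06 ± 0.14. In the segregants PRY3 read 7.81 and 9.83, and segregant 1 was the lower of the pair for PRY3 as for HPF1. TOS8 differed by 0.58 ± 0.23 in BY and by 1.44 ± 0.23 in RM. A second ADH4 probe set had r = 0.40 and passed the test in neither background nor in hybrids against mixtures, so the ADH4 readouts disagreed.

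The 6 genes least like HPF1 were lower in diploids. They were GPA1 (r = -0.99), the alpha subunit of the pheromone-response G protein, FAR1 (-0.98), which arrests the cell cycle in response to pheromone, STE18 and STE4 (-0.98 each), the gamma and beta subunits of the same G protein, the recombination gene RDH54 (-0.96) and TEC1 (-0.96), a transcription factor of filamentous growth. GPA1 lay between 7.88 and 8.45 on the 14 arrays where HPF1 was low and between 5.79 and 6.15 on the 14 diploid arrays. FAR1 lay between 9.52 and 10.31 and between 5.81 and 6.61. In hybrids against mixtures the difference was -2.23 ± 0.08 for GPA1 and -4.10 ± 0.11 for FAR1 (SE, n = 6), next to 4.07 for HPF1.

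**Figure D3:**
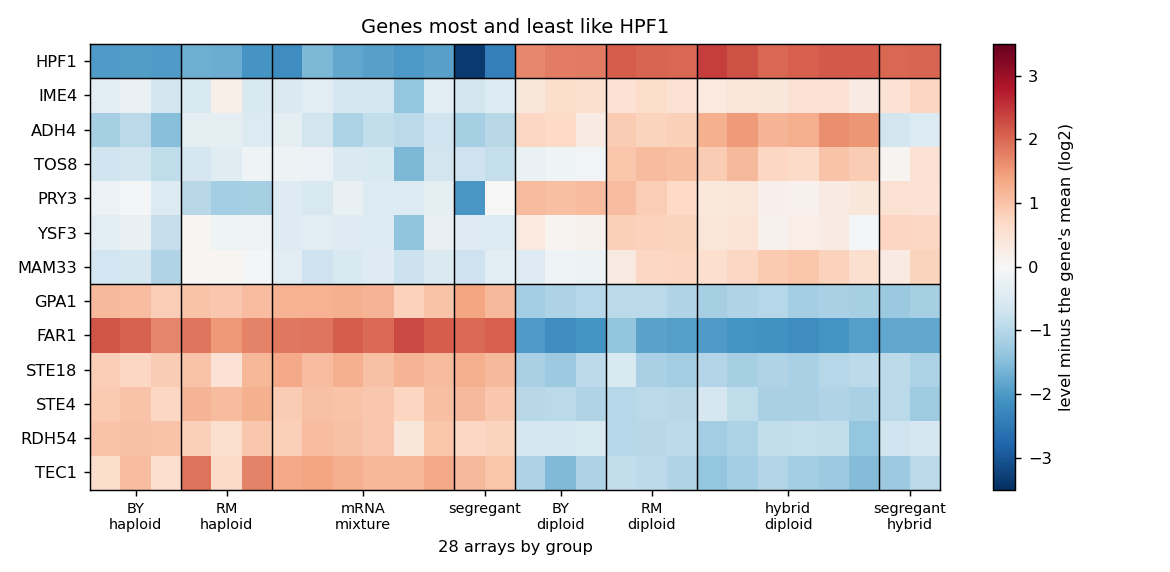
Log2 level minus each gene's own mean over 28 arrays (colour, red above and blue below the mean) for HPF1, the 6 genes most like it and the 6 least like it, with arrays by group. HPF1 changed sides between the 14 diploid arrays and the others, GPA1 and FAR1 did so in the opposite direction, and ADH4, TOS8, YSF3 and MAM33 had some diploid arrays below their highest other array.

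HPF1 lies near the left end of chromosome XV, and its nearest measured neighbours were examined in the gene order of the R64 reference annotation. Of 10 measured neighbours, 5 on each side, 1 was called in BY diploids against BY haploids, where 6.35% of all probe sets were called. In RM 1 was called (8.24%), and both were higher. Of 5656 genes with 1 probe set each, 138 were called higher and 60 lower in BY, and 278 and 154 in RM. The neighbour called in BY was ZPS1 (YOL154W), the next gene on one side and transcribed away from HPF1, which encodes a secreted protein induced by zinc limitation. ZPS1 read 8.0, 8.46 and 9.04 in BY haploids and 12.56, 12.59 and 12.35 in BY diploids. It was higher in BY diploids by 4.0 ± 0.53 (adjusted p = 5.0e-06).

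In RM, ZPS1 read 8.40, 8.54 and 8.07 in haploids and 9.54, 9.46 and 9.60 in diploids. The arrays did not overlap, but the difference of 1.20 ± 0.53 missed the threshold (adjusted p = 0.205). Whether it differed from that in BY was not tested. Hybrids lay between 11.94 and 12.20 and mixtures between 7.82 and 10.81, a difference of 3.02 ± 0.37 (adjusted p = 9.2e-07). Unlike HPF1, ZPS1 varied among mixtures, with 10.81 and 10.56 in replicates 1 and 2 and 7.82 to 8.78 in the other four. It also set RM diploids apart from the other diploids, which HPF1 did not.

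The neighbour called in RM was CSS3 (YOL159C), higher in diploids by 0.76 ± 0.17 (adjusted p = 0.0031) and at -0.01 ± 0.17 in BY (adjusted p = 0.987). In hybrids against mixtures 17.1% of all probe sets were called higher and 11% lower. Of 5656 genes with 1 probe set each, 1247 were higher and 608 lower. Among the 10 neighbours 4 were higher and none lower. They were ZPS1, CSS3 by 0.46 ± 0.12, the pseudogene YOL153C by 0.98 ± 0.21 and FRE7 by 0.59 ± 0.14. FRE7, a putative ferric reductase gene, had means of 5.26 in mixtures and 5.85 in hybrids. These lie near the 10th percentile of all values (5.73). The other neighbours (YOL163W, YOL162W, the siderophore transporter gene ENB1, YOL155W-A, the reductase gene GRE2 and the decapping gene DCP1) passed in none of the 3 comparisons, with differences between -0.44 and 0.50. YOL163W, YOL162W and YOL155W-A were also near that percentile, with group means of 5.65 to 6.06, 5.64 to 6.03 and 5.75 to 6.27. A lack of difference at such low levels says little. YOL155W-A, the nearest measured gene on the other side, was at 0.05 ± 0.21 in BY, -0.42 ± 0.21 in RM and 0.10 ± 0.15 in hybrids against mixtures, and its other 2 probe sets were not called either. IMA2 and HXT11, which lie close to HPF1 on that side, have no probe set for the gene alone.

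**Figure D4:**
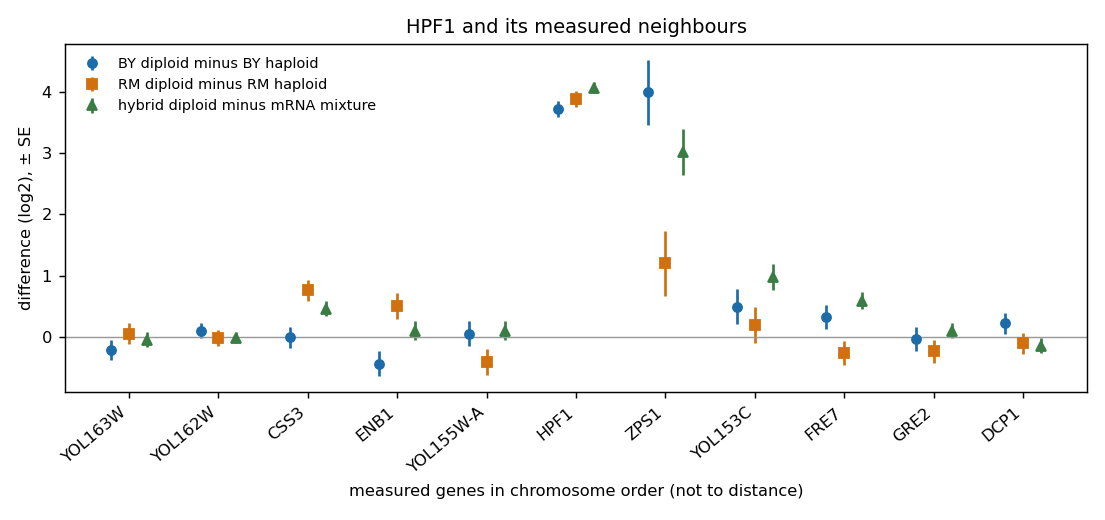
Differences in log2 level (points, ± SE from the limma fit) of HPF1 and 10 measured neighbours in chromosome order for 3 comparisons. HPF1 was at 3.72, 3.89 and 4.07, its neighbour ZPS1 at 4.0, 1.20 and 3.02, and the other 9 neighbours between -0.44 and 0.98.

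No other measured gene of the cell wall lists reached the difference of HPF1. Of 31 measured mannoprotein genes of the GPI and PIR classes, which are anchored through a lipid remnant or bound to glucan directly, 1 rose and 2 fell in BY diploids, when 2.33% of all probe sets were called higher and 4.02% lower. The median difference was 0.14, against 0.11 over all probe sets. PRY3 rose by 1.33 ± 0.13 (adjusted p = 3.9e-08), and the iron-regulated mannoprotein genes FIT2 and FIT3 fell by 1.61 ± 0.33 and fell by 0.73 ± 0.15. In RM diploids 4 rose and 1 fell, when 3.71% of all probe sets were called higher and 4.53% lower, and the median was 0.00 against 0.03. PRY3 rose there by 1.99 ± 0.13 (adjusted p = 6.1e-11) and CCW14, an inner wall protein gene, by 0.78 ± 0.17. The lists here and below take 1 probe set per gene. Of the 5656 genes so taken, 138 were called higher and 60 lower in BY (median 0.13). In RM 278 were called higher and 154 lower (median 0.05).

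Genes that build glucan, chitin and mannan had 1 rise and 1 fall among 42 in BY diploids (median 0.12) and 2 rises and 8 falls in RM diploids (median -0.14). Over all probe sets 2.33% were called higher and 4.02% lower in BY (median 0.11), and 3.71% and 4.53% in RM (median 0.03). CRH1, which links chitin to glucan, rose in BY by 0.59 ± 0.12, and UTH1 fell by 0.44 ± 0.13. In RM the largest called difference was that of NCA3, of the SUN family, which fell by 1.44 ± 0.21. MNN4 and OCH1, of mannan synthesis, fell by 0.77 ± 0.16 and fell by 0.65 ± 0.13. A second MNN4 probe set differed by -0.22 and did not pass (adjusted p = 0.497).

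The list of the cell wall integrity pathway and its Rlm1 targets held 33 genes. In BY 2 rose and 1 fell (2.33% and 4.02% over all probe sets, median 0.21). In RM 6 rose and 2 fell (3.71% and 4.53%, median 0.10). MLP1 entered this list as the gene of that name, not as the protein kinase KDX1, which was not counted. MLP1 was called in neither background (0.44 ± 0.15 in BY and 0.20 ± 0.15 in RM). The list shares 11 genes with the 2 lists before it, among them CRH1, which is counted again as a rise in BY, and HSP150, counted again in RM. NCW2, a cell wall protein gene, rose in both, by 0.70 ± 0.14 (adjusted p = 0.00166) and 0.52 ± 0.14 (adjusted p = 0.022). PRM5, a target of the pathway, fell by 1.19 ± 0.32 in BY (adjusted p = 0.0202). SLT2, the protein kinase of the pathway, rose in RM by 0.76 ± 0.16 and was at 0.21 ± 0.16 in BY (adjusted p = 0.644). Of 5 measured genes for starch, maltose and sucrose glucosidases, 0 were called in BY (6.35% of all probe sets) and 1 in RM (8.24%), the invertase gene SUC2 at 1.35 ± 0.25, of whose other probe sets one gave 1.19 and passed and one gave -0.10 and did not.

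**Figure D5:**
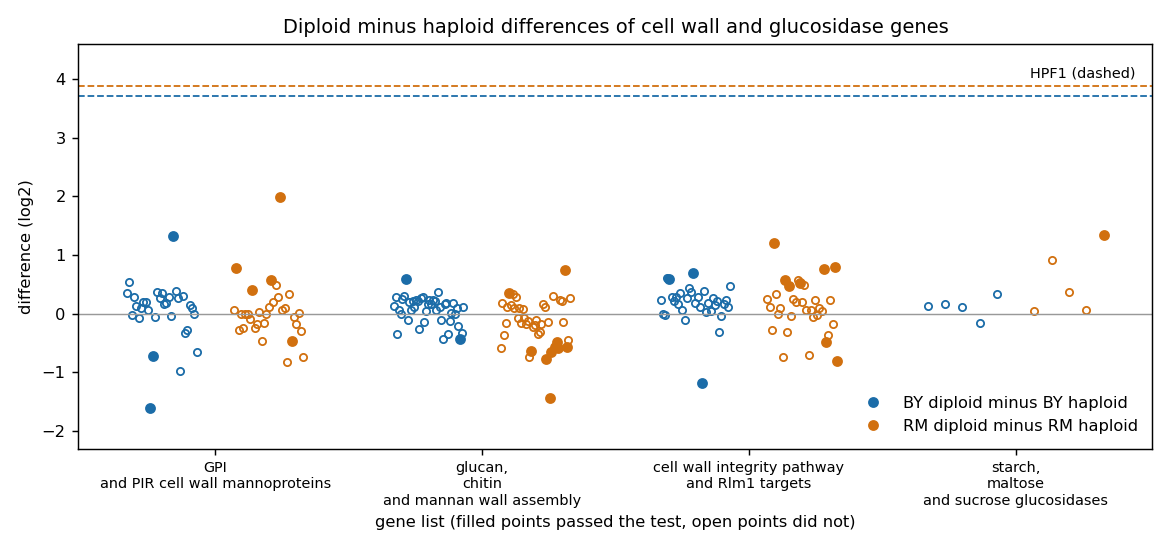
Differences in log2 level between diploids and haploids of BY and of RM for the measured members of 4 gene lists (filled points passed the limma test, open points did not), with HPF1 as dashed lines at 3.72 (BY) and 3.89 (RM). All list members lay below HPF1, and the highest was PRY3 at 1.99 in RM.

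In hybrids against mixtures, where 17.1% of all probe sets were higher and 11% lower, the mannoprotein list had 5 higher and 3 lower members of 31 and the glucan, chitin and mannan list 3 higher and 11 lower of 42. The integrity list had 8 higher and 5 lower of 33, with MLP1 (-0.32 ± 0.10) among the lower, and the glucosidase list 1 higher of 5. Of 5656 genes with 1 probe set each, 1247 were higher and 608 lower. Over the settings tried, the called members of these lists numbered 6 to 19, 12 to 25, 11 to 19 and 0 to 3, with the highest numbers under array weights. The glucosidase count was 2 without hybrid replicate 6 or mixture replicate 1, 2 or 5. Their medians were 0.10, -0.11, 0.09 and 0.44, against 0.08 over all probe sets. The highest member of the mannoprotein list was the flocculation gene FLO1 at 0.88, below the 4.07 of HPF1. TIP1, a mannoprotein gene of cold shock, fell by 1.63 ± 0.10 (adjusted p = 1.7e-11).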

How the data were processed

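The deposited table holds log2 levels per probe set of single-colour arrays, made by the authors with software not given in the sources used here. The scale was read from the values (highest 14.67), and detection calls were not used. Of 9335 probe sets, 60 controls and 1 at 0 on every array were left out. The platform annotation gave 6504 of the remaining 9274 a single gene, 328 several and 2442 none. All 6504 matched R64 (5656 genes, each represented by its probe set of highest mean). There were 0 columns without a sample, and no replicates were identical (at most 3.00% of values equal).

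Group means of 24 arrays in 6 groups (28 arrays for segregants) were fitted with limma 3.58.1 in R 4.3.3 (lmFit, eBayes, two-sided, Benjamini-Hochberg over 9274 probe sets, threshold 0.05). Every adjusted p is from limma. The number of arrays limits the precision. The fit was tested on simulated data with independent noise, where 200 probe sets were shifted by 1 or 2 (log2). It recovered 77% and 99% of them for RM against BY haploids and 95% and 100% for hybrids against mixtures. Of its calls, 7.78% and 5.71% were false in the former and 5% and 6.54% in the latter. Exact permutation tests used scipy 1.17.1, and figures matplotlib 3.10.9. Alternatives were quantile normalization, median centring, a filter on dim probe sets, a floor, other samples in the fit, array weights, a replicate block, a trend in the variance, 1 probe set for each gene and leaving out each array.

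The gene, the lists and the tests were chosen with earlier results of these data known. Genes to be named were HPF1, CSS1, the 5 measured neighbours on each side, the 6 most and 6 least like HPF1 by r, up to 4 called members of each list with the largest differences in each ploidy comparison, and the markers GPA1, FAR1, STE2, STE3 and MFA2. The text names part of them, and 1 list is not reported here. FLO1, TIP1 in hybrids, SLT2 in BY, PRY3 in segregants, MLP1 and the haploid-specific genes not called in RM were picked after their values were seen.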

Additional observations from a re-analysis of the deposited data

How the results depend on the processing

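No called HPF1 difference, nor its rise in BY and RM diploids, turned its sign in any setting. In BY it was 3.62 under quantile normalization and 3.62 under median centring, against 3.72. RM against BY diploids passed with the HPF1 probe set on the compared groups alone (0.30, adjusted p = 0.0393) and with array weights (0.27, adjusted p = 0.0254). With the shared probe set, hybrids against BY diploids no longer passed on all 28 arrays (0.37, adjusted p = 0.0766), nor did mixtures against RM haploids there (-0.37, adjusted p = 0.0789) or on the compared groups alone (-0.37, adjusted p = 0.155). Leaving out single arrays ended calls of the shared probe set for RM against BY diploids (0.46 to 0.57), hybrids against BY diploids (0.34 to 0.42) and mixtures against RM haploids (-0.48 to -0.27), and of the HPF1 probe set for hybrids against BY diploids (0.37 to 0.45). The cause was not tested. The shared probe set has no value with 1 probe set per gene.

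Replicate numbers were not taken as pairing, since same-numbered arrays did not all deviate together (correlations of -0.103 to 0.001 in BY ploidy and -0.245 to 0.464 in hybrids and mixtures, but 0.031 to 0.332 in RM ploidy and 0.076 to 0.261 in hybrids and RM diploids). With the replicate block, the shared probe set was at 0.36 for hybrids against BY diploids (adjusted p = 0.0643) and at -0.37 for mixtures against RM haploids (adjusted p = 0.0646), and no other HPF1 call changed.

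Counts over all probe sets with array weights were 1358 against 589 (BY ploidy), 1993 against 764 (RM ploidy), 2593 against 1669 (strain, haploids), 3744 against 1598 (strain, diploids), 4615 against 2611 (hybrids and mixtures), 4945 against 2144 and 4040 against 1158 (hybrids against BY and RM diploids), and 1443 against 394 and 3359 against 2156 (mixtures against BY and RM haploids). With 1 probe set per gene they were 165 (BY ploidy), 473 (RM ploidy), 1021 (strain, haploids), 617 (hybrids against RM diploids), 858 (mixtures against RM haploids) and 197 against 636 (segregants). On the compared groups alone the counts over all probe sets were 2478 (strain, diploids), 205 and 1161 (mixtures against BY and RM haploids). Without mixture replicate 5 they were 1172 (RM ploidy), 2114 (hybrids against RM diploids) and 647 (mixtures against BY haploids). Hybrids gave 1388 without BY diploid replicate 3 and 694 without RM diploid replicate 2 against those parents, and mixtures 237 without BY haploid replicate 3 and 1183 without RM haploid replicate 2. Median centring moved the share of higher calls from 36.7% to 23.6% (BY ploidy), from 42.4% to 56.6% (hybrids against BY diploids) and from 62.7% to 43.9% (mixtures against BY haploids).

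For ploidy, the called mannoprotein genes numbered 3 to 9 in BY and 2 to 8 in RM, the wall assembly genes 1 to 8 and 8 to 17, the integrity genes 2 to 8 and 4 to 13 and the glucosidases 0 and 1 to 2. In RM, mannoprotein calls fell from 5 to 2 without RM diploid replicate 1 and to 3 without RM diploid replicate 2, RM haploid replicate 1 or hybrid replicate 5, and integrity calls from 8 to 4 without RM diploid replicate 1.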
